A study of Saccharomyces cerevisiae with 116 samples.

Results

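Budding yeast held in G1 or in mitosis were exposed to milder and to stronger salt, and their RNA was compared between the doses within each arrest. The comparison rests on 6 of the 116 libraries of the series, chosen by their labels. For each arrest they are the replicate 2 library before salt (T0) and those labelled 0.5N t30 and 0.7N t30 (NaCl). The cells were strain BY4741 (MATa), grown in rich medium (YPD). In 1 set they were held in G1 by 2 h of 25 uM alpha factor, the mating pheromone. In the other they were held in mitosis by 2 h of 10 ug/ml nocodazole, which depolymerises microtubules. None of these 6 libraries came from cells without an arresting agent. The labels do not spell out the letter N or the unit of t30. Each combination of arrest and dose is 1 library, so in the fit of these 6 the arrests serve as the pair of samples per dose. P-values of that fit measure the spread between these libraries only.

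High salt outside the cell draws out water and lets sodium in. Yeast answers through the HOG pathway, in which membrane sensors activate the MAP kinase Hog1; Hog1 and the stress regulators Msn2 and Msn4 turn on genes for glycerol production, sodium export and protection of proteins and membranes. Genes for ribosomes and their assembly, which take up much of a growing cell's transcription, are turned down in the same response. Both programmes are transient, and they are known to last longer as the salt becomes stronger.

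Totals were 1794997, 4822795 and 3143923 counts at T0, 0.5N and 0.7N in alpha factor and 3807722, 4580493 and 3196005 in nocodazole, so the 0.7N library was the shallower of each pair. The arrests matched their markers. The 8 pheromone-induced markers, including the cell fusion genes FUS1 and FUS2, summed to 5570 to 9593 CPM (counts scaled to a common library total) in alpha factor and to 89.6 to 125 in nocodazole. The 9 mitotic markers, including the cyclins CLB1 and CLB2, summed to 258 to 299 and to 1934 to 2519. MET17 and URA3, which BY4741 lacks, had no count in any of the 6, and LEU2 had counts in the nocodazole 0.7N library only, at 0.313 CPM.

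With the 6 libraries fitted together, no single gene separated 0.7N from 0.5N after adjustment. The fit had a term for arrest and 1 for each dose (edgeR quasi-likelihood test, Benjamini-Hochberg adjustment over 5558 genes). It called 0 genes higher (0%) and 0 lower (0%) at an adjusted p under 0.05, the threshold for a call throughout. The smallest adjusted p was 0.282, for GID10. At an unadjusted p under 0.05, 303 genes were higher (5.45%) and 285 lower (5.13%); with library totals in place of TMM scaling these counts were 457 and 204. DESeq2 called 19 higher and 7 lower.

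The number of calls depended on which libraries supplied the spread. The residual of the 6-library fit also holds every difference between the arrests in the response from T0. Without the alpha factor T0 library 245 genes were called higher and 349 lower, without the nocodazole T0 library 237 and 338, and without the alpha factor 0.7N library 111 and 120. Without any one of the other 3 libraries the counts were 0 and 0. The 4 salt libraries alone gave 249 higher (4.49% of 5549) and 356 lower (6.42%), a fit chosen after the others were seen. It has 1 residual degree of freedom and took a common variance for genes of like level. A fit planned as an alternative took its spread from all 22 unspiked salt libraries at T0 and T30. These also include growing cells, cells given cycloheximide and a longer nocodazole arrest. Among them 6 groups have 2 libraries, and the fit assumes that the lone libraries vary like those. The pairs were uneven. At T0 they differed by 6.86 times sampling variance in alpha factor, 6.92 in nocodazole, 10.8 in the longer nocodazole arrest and 32.5 in cycloheximide. At T30 the longer nocodazole pair differed by 61.6 times and the cycloheximide pair by 71.2. No pair held salt-treated cells of alpha factor or of the shorter nocodazole arrest, so the assumption was not tested for them. This fit gives each arrest and dose its own mean, so its p-values hold no spread between the arrests. It called 29 genes higher (0.497% of 5836) and 22 lower (0.377%), with 5.23% higher and 7.18% lower at an unadjusted p under 0.05. All 51 of these were among the calls from the 4 salt libraries, but both fits take the step from those same 4 libraries. The overlap is thus no separate support. Below, a gene is said to have risen or fallen from 0.5N to 0.7N only where this 22-library fit called it. Other values are given without a call. This rule was not in the plan, where the 6-library fit was the test of the step.

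The step from 0.5N to 0.7N resembled itself across arrests that share no library. Across the 5558 tested genes the log2 differences in alpha factor and in nocodazole had a Pearson correlation of 0.54, given as a description, and 66.2% of genes had the same sign. The spread of the step across genes was wider in nocodazole, with an SD of 0.64 on the log2 scale against 0.39 in alpha factor. A difference of at least 2-fold was seen for 83 genes higher (1.49%) and 50 lower (0.9%) in alpha factor, and for 242 higher (4.35%) and 371 lower (6.68%) in nocodazole. In both arrests at once, 170 genes (3.06%) were at least 1.5-fold higher and 152 (2.73%) at least 1.5-fold lower.

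**Figure D1:**
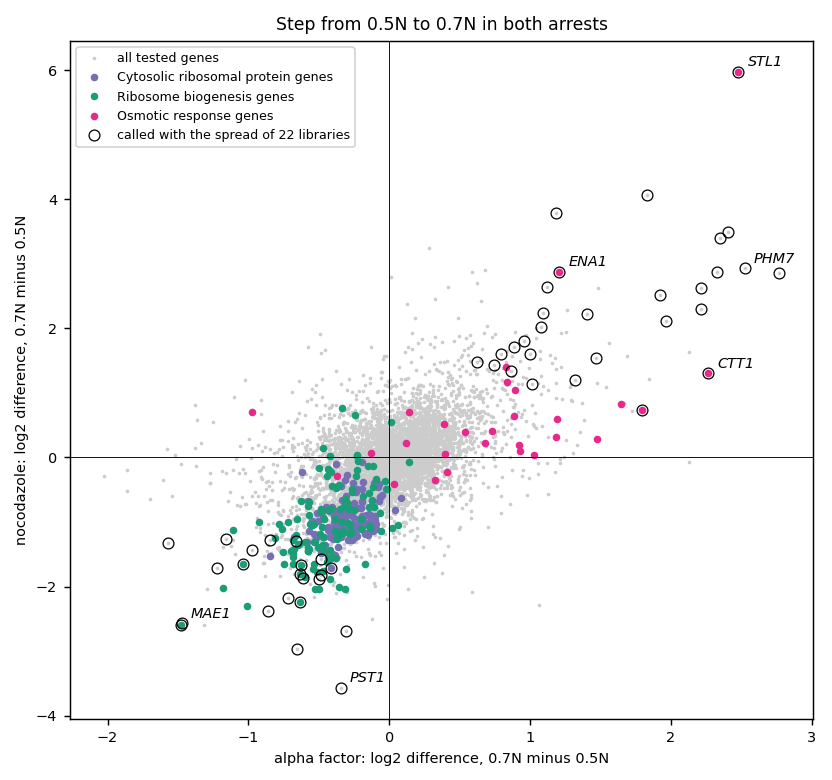
Log2 difference of each tested gene between 0.7N and 0.5N in alpha factor (x axis) and in nocodazole (y axis); colours mark gene lists and open circles the 51 genes called with the spread of 22 libraries. Ribosome genes gather at the lower left, and STL1 stands at 2.48 and 5.98.

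Among genes of glycerol and sodium handling, the 22-library fit called STL1 and ENA1 higher at 0.7N. Of 15 glycerol and osmolyte genes 10 were higher and 2 lower in both arrests, against 31.3% and 34.9% of all tested genes, with STL1 the call. STL1 is the glycerol importer of the plasma membrane and a Hog1 target. Gene values are CPM on TMM-scaled totals, in the order T0, 0.5N and 0.7N. STL1 stood at 1.10, 180.2 and 1008 CPM in alpha factor and at 1.64, 59.9 and 3819 CPM in nocodazole. Both arrests were ordered by dose, nocodazole having the lower 0.5N and the higher 0.7N level. Its log2 difference between 0.7N and 0.5N was 4.20 ± 0.89 (SE) in the 6-library fit, with an adjusted p of 0.387, and it rose by 4.25 ± 0.44 in the 22-library fit (adjusted p = 0.00500). ENA1, the sodium pump that exports the ion, stood at 75.0, 271 and 628 CPM in alpha factor and at 4.66, 91.8 and 678 CPM in nocodazole. It rose by 2.06 ± 0.34 in the 22-library fit (adjusted p = 0.0235), though ENA1 has near-identical neighbouring copies and the counting could have split their reads.

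GPD1, which makes the first step of glycerol synthesis, stood at 769, 2171 and 3859.7 CPM in alpha factor and at 572, 2567 and 6805 CPM in nocodazole. It was ordered by dose in both, with a log2 difference of 1.15 ± 0.41 that no fit over 6 or 22 libraries called. GPP2, the phosphatase of the next step, stood at 194, 1721 and 2757 CPM in alpha factor and at 299, 3319 and 3881 CPM in nocodazole. Most of its increase over T0 was thus already present at 0.5N. Of 28 tested osmotic response genes, 25 were higher at 0.7N in alpha factor, 24 in nocodazole and 22 in both, where 1740 of all tested genes (31.3%) were higher in both. The order T0, 0.5N, 0.7N from lowest to highest held in both arrests for 22 of them, against 14.4% of all tested genes. The list had a median step of 0.83 in alpha factor and 0.40 in nocodazole on the log2 scale, against 0.00 and -0.05 over all tested genes. The 22-library fit called 4 of them higher (STL1, ENA1, CTT1 and RTN2) and none lower, the 6-library fit none.

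**Figure D2:**
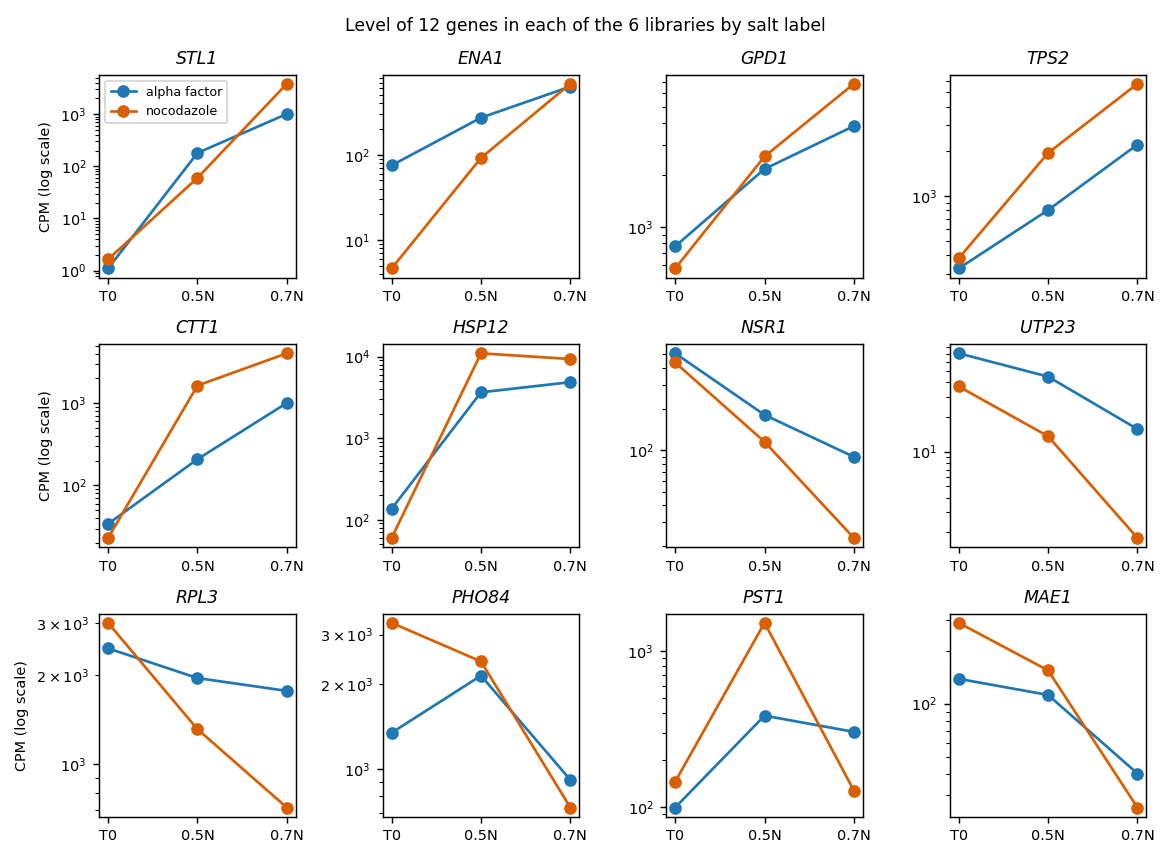
CPM on a log axis of 12 genes in each of the 6 libraries, ordered T0, 0.5N and 0.7N; each point is 1 library, blue for alpha factor and orange for nocodazole. STL1 climbs at both steps, and PST1 in nocodazole stands at 1518 CPM at 0.5N only. HSP12 is higher at 0.7N than at 0.5N in alpha factor and lower in nocodazole.

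General stress genes, the targets of Msn2 and Msn4 that many stresses share, were higher at 0.7N in both arrests for some members and not for others. CTT1, the cytosolic catalase, stood at 34.2, 209 and 1005 CPM in alpha factor and at 23.0, 1637 and 4037 CPM in nocodazole. Its 0.5N level in alpha factor was well under that in nocodazole, and it rose by 1.80 ± 0.34 in the 22-library fit (adjusted p = 0.0369). HSP12, a small membrane-protecting stress protein, stood at 136, 3650.2 and 4864 CPM in alpha factor and at 59.7, 10986 and 9347 CPM in nocodazole. The difference between its doses was 0.01 ± 0.68, with opposite signs in the arrests. Of 58 tested general stress genes, 38 were higher at 0.7N in both arrests and 4 lower in both, against 31.3% and 34.9% of all tested genes. With 22 libraries 8 were called higher and with the 4 salt libraries 23, against 0.497% and 4.49% of all tested genes. The median step of the list was 0.70 in alpha factor and 0.32 in nocodazole.

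Genes for the storage sugars glycogen and trehalose, of which trehalose also protects proteins, were mostly higher at 0.7N as well. TPS2, the phosphatase that completes trehalose, stood at 325, 805 and 2225 CPM in alpha factor and at 381, 1952 and 5712 CPM in nocodazole. The step was near equal in the arrests, 1.47 and 1.55, and TPS2 rose by 1.52 ± 0.26 (22 libraries, adjusted p = 0.0245). GSY1, a glycogen synthase, stood at 94.3, 183 and 339 CPM and at 212, 288 and 948 CPM, and it rose by 1.32 ± 0.26 (22 libraries, adjusted p = 0.0436). GPH1, which breaks glycogen down and was chosen after its values were seen, went the other way, from 484 to 409 CPM in alpha factor and from 2389 to 1645 CPM in nocodazole, a log2 difference of -0.42 ± 0.51 without a call. Of the 22 genes of this list, 18 were higher at 0.7N in both arrests, against 31.3% of all tested genes. The 4 salt libraries called 9 of them higher and none lower, against 4.49% and 6.42% of all tested genes. DDR2, a small stress protein gene, stood at 2.21, 58.3 and 144 CPM and at 12.6, 298 and 547 CPM.

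The other protective lists were mixed, beside 31.3% of all tested genes higher in both arrests and 34.9% lower. Of 16 small stress protein genes 9 were higher at 0.7N in both arrests and 3 lower, with a median step of 0.82 in alpha factor and 0.21 in nocodazole; 1 was called higher with 22 libraries and 8 with the 4 salt libraries. The called one was TMA10, a ribosome-associated protein gene, at 40.8, 66.0 and 115 CPM and at 27.4, 68.0 and 207 CPM, and it rose by 1.22 ± 0.24 (22 libraries, adjusted p = 0.0436). The 31 targets of the heat shock factor had a median step of 0.01 in alpha factor and -0.46 in nocodazole, with 5 higher and 12 lower in both arrests. HSP42, a chaperone that gathers misfolded proteins, was an exception at 93.2, 219 and 407 CPM and at 66.6, 347 and 1339 CPM, a difference of 1.52 ± 0.49 without a call. Among 30 antioxidant genes 9 were higher and 10 lower in both arrests, near the shares of all tested genes. The 22-library fit called CTT1 alone. The 34 proteasome genes had a median step of 0.14 in alpha factor and -0.08 in nocodazole, and no fit over 4, 6 or 22 libraries called a member.

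The genes with the smallest p-values for a higher level at 0.7N had varied roles. GID10, a recognition subunit of the ligase that degrades gluconeogenic enzymes, stood at 4.41, 16.1 and 76.95 CPM and at 1.64, 10.1 and 65.2 CPM, ordered by dose in both arrests. It rose by 2.48 ± 0.44 (22 libraries, adjusted p = 0.0282). PUT4, the proline permease, stood at 6.62, 37.0 and 188 CPM and at 2.19, 53.0 and 391 CPM and rose by 2.63 ± 0.37 (adjusted p = 0.0100, 22 libraries). BDH2, a putative butanediol dehydrogenase, stood at 42.5, 51.9 and 199 CPM and at 45.5, 141 and 810.0 CPM, and YNL195C at 2.76, 22.1 and 105 CPM and at 1.10, 43.3 and 216 CPM. Both rose in the 22-library fit, by 2.24 ± 0.30 and 2.30 ± 0.39, with adjusted p of 0.00868 and 0.0235. In every 0.7N library each of these 4 genes stood above the 0.5N library of the same arrest by more than 3-fold.

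The other 8 genes of that rank were not called with 22 libraries. They were MPC3, a subunit of the mitochondrial pyruvate carrier; ATG39, a receptor for autophagy of the nucleus; CYB2, the mitochondrial lactate dehydrogenase; SOL1, SUB1 and YLR177W; DDR2; and PIG2, a regulatory subunit for glycogen synthesis. Their log2 differences ran from 1.09 for DDR2 to 2.06 for MPC3. SUB1, a transcriptional coactivator, showed no increase at the milder dose, with 88.8, 76.3 and 158 CPM in alpha factor and 68.5, 67.3 and 245 CPM in nocodazole. For SUB1 the higher level thus appeared at 0.7N only.

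Genes named because the 22-library fit called them, here and in the lists (RTN2, GSY1, NOG1, GAR1, NOP58, NOP2, RPS9A, RPA49, ADE17, ARG56, EXG1, TMA10, YAK1), were chosen after their values were seen. NCE103, the carbonic anhydrase, stood at 136, 173 and 615 CPM and at 32.3, 51.4 and 871 CPM, and it rose by 2.97 ± 0.40 (adjusted p = 0.00868). Its 0.5N level was above T0 in both arrests, by less than the step from 0.5N to 0.7N. HXT5, a hexose transporter made when growth slows, stood at 14.9, 128 and 502 CPM and at 1.64, 489 and 2116 CPM, and it rose by 2.06 ± 0.33 (adjusted p = 0.0225). YNL194C, a membrane protein of the SUR7 family, and FMP48, a mitochondrial kinase-like protein, rose by 2.99 ± 0.41 and 2.91 ± 0.37, with adjusted p of 0.00868 and 0.00843.

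Of 130 tested ribosome biogenesis genes, 120 were lower at 0.7N in both arrests and 1 was higher in both, where 1939 of all tested genes (34.9%) were lower in both. Their median step was -0.43 in alpha factor and -1.08 in nocodazole. In the 6-library fit 56 of the 130 had an unadjusted p under 0.05 for a lower level and none was called; 5 were called lower with 22 libraries and 79 with the 4 salt libraries. The reverse order, T0 highest and 0.7N lowest, held in both arrests for 115 of them, against 17.3% of all tested genes. NSR1, a nucleolar protein needed to process ribosomal RNA, stood at 509.7, 181 and 89.6 CPM in alpha factor and at 437, 115 and 22.9 CPM in nocodazole. It fell below T0 at 0.7N by 3.30 ± 0.44 (adjusted p = 0.0147), and its step between the doses was -1.56 ± 0.41 (adjusted p = 0.466).

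UTP23, a factor of the small subunit processome, stood at 71.2, 44.7 and 15.7 CPM and at 36.7, 13.6 and 1.79 CPM, ordered by dose in both arrests. It fell by 2.19 ± 0.39 on the log2 scale (22 libraries, adjusted p = 0.0282). NOG1, a GTPase of large subunit assembly, stood at 494, 315 and 203 CPM and at 394, 198 and 41.7 CPM and fell by 1.43 ± 0.22 (adjusted p = 0.0157, 22 libraries). GAR1, NOP58 and NOP2, nucleolar proteins that modify ribosomal RNA, fell by 1.35 ± 0.27, 1.21 ± 0.22 and 1.14 ± 0.20 in that fit (adjusted p = 0.0469, 0.0282 and 0.0255). REI1, a factor of late large subunit assembly, stood at 133, 73.4 and 43.1 CPM and at 86.3, 44.96 and 20.6 CPM without a call for the step.

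Ribosomal protein genes separated the doses more than they separated 0.5N from no salt in alpha factor. In alpha factor, 94 of 137 were higher at 0.5N than at T0, with a median of 0.10, whereas 135 of 137 were lower at 0.7N than at 0.5N, with a median of -0.30. In nocodazole, 130 were lower at 0.5N than at T0 (median -0.81) and 137 lower at 0.7N than at 0.5N (median -0.97). The single-gene steps from 0.5N to 0.7N ran from -0.85 to 0.08 in alpha factor and from -1.71 to -0.07 in nocodazole, so their ranges overlapped. RPL3, a large subunit protein, stood at 2461, 1953 and 1768 CPM and at 3002, 1313 and 714 CPM. Without a call from 6 libraries, 1 member was called lower with 22 libraries, RPS9A, at 644, 709 and 532 CPM and at 452, 637 and 194 CPM, and 48 with the 4 salt libraries. Many of these genes, RPS9A included, are near-identical pairs whose reads the counting could have split. Fewer transcripts per cell and a smaller share of total RNA cannot be told apart in CPM.

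**Figure D3:**
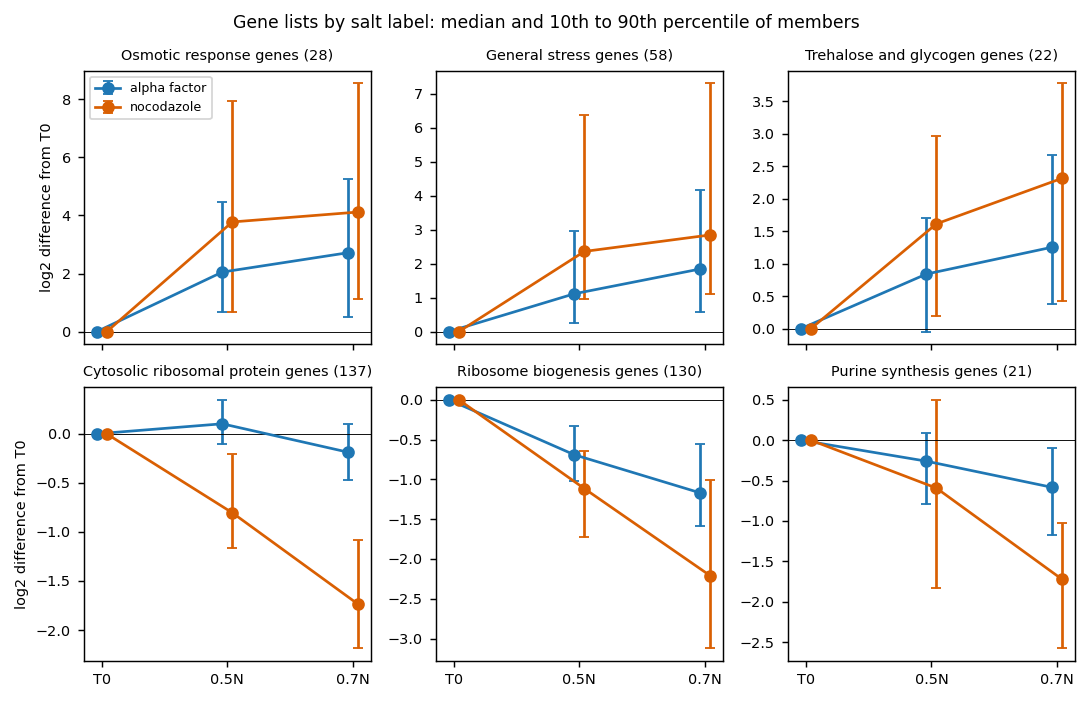
Log2 difference from T0 at 0.5N and 0.7N for 6 gene lists, as the median over tested members with bars from the 10th to the 90th percentile of members; blue is alpha factor, orange nocodazole, with 1 library per point. Ribosomal protein genes in alpha factor are at a median of 0.10 at 0.5N and -0.19 at 0.7N, and ribosome biogenesis genes step down at both doses in both arrests.

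The machinery that transcribes ribosomal RNA and translates messages leaned the same way. Of all tested genes 34.9% were lower in both arrests and 31.3% higher. Of 22 RNA polymerase I and III genes 17 were lower in both arrests and 1 higher, with a median of -0.36 in alpha factor and -0.75 in nocodazole. RPA49, a subunit of RNA polymerase I, stood at 175, 158 and 113 CPM and at 167, 105 and 29.5 CPM and fell by 1.15 ± 0.22 (22 libraries, adjusted p = 0.0369). RRN11, of the factor that recruits RNA polymerase I, stood at 81.6, 45.1 and 24.3 CPM and at 56.7, 34.6 and 14.6 CPM without a call. Of 38 translation factor genes 34 were lower in both, with medians of -0.18 and -0.57. Mitochondrial ribosomal protein genes did not share this: of 65, 15 were higher and 23 lower in both arrests, and no fit over 4 or 22 libraries called a member.

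**Figure D4:**
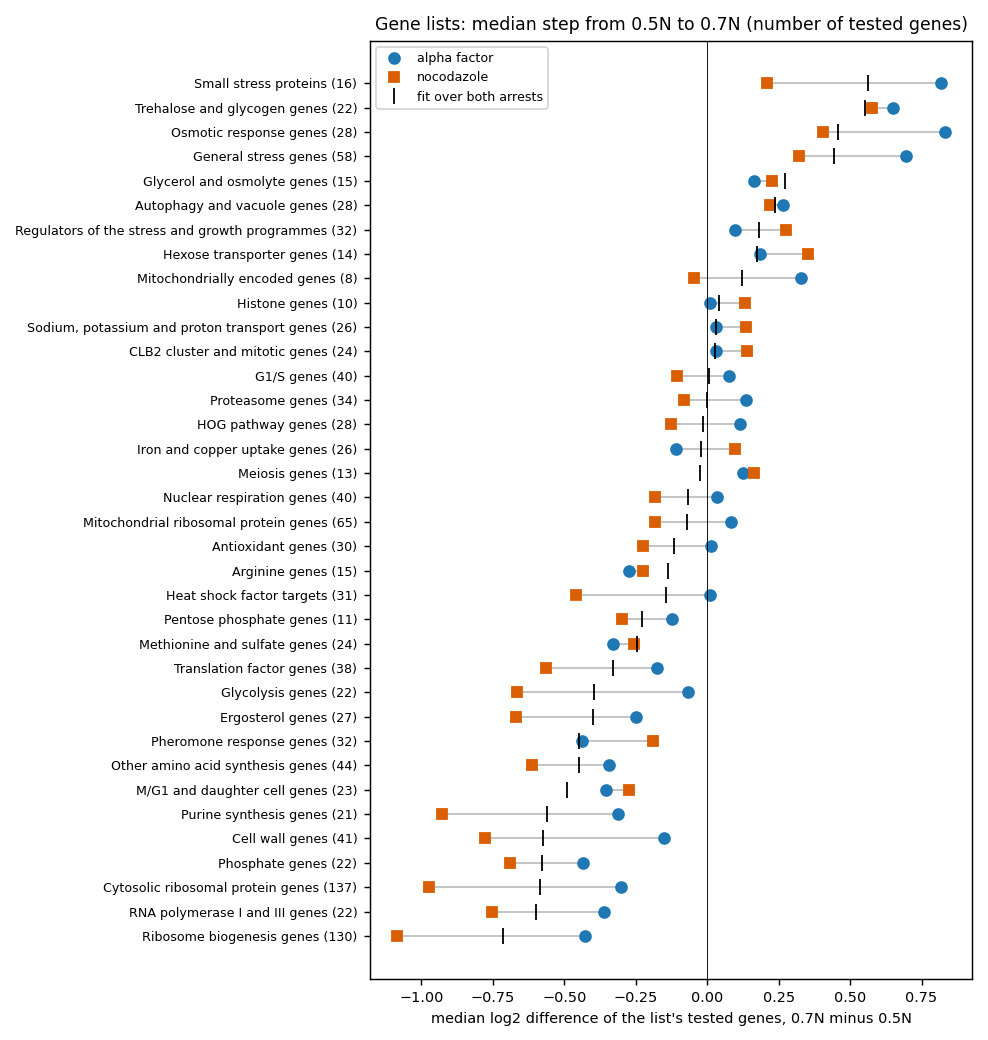
Median log2 difference between 0.7N and 0.5N of the tested members of 36 gene lists, for alpha factor (circles), nocodazole (squares) and the 6-library fit (ticks), each from 1 library per arrest and dose. Ribosome biogenesis genes are lowest in nocodazole at -1.08, and osmotic response genes highest in alpha factor at 0.83.

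Most biosynthetic lists leaned lower at 0.7N, to differing degrees, beside 34.9% of all tested genes lower in both arrests and 31.3% higher. Of 21 purine synthesis genes 20 were lower in both arrests, and the 22-library fit called ADE17, which makes the last steps of the pathway. ADE17 stood at 287, 395 and 251 CPM in alpha factor and at 362, 576 and 73.3 CPM in nocodazole, highest at 0.5N in both, and it fell from 0.5N to 0.7N by 1.80 ± 0.30 (adjusted p = 0.0235). Of 44 other amino acid synthesis genes 39 were lower in both, and of 27 ergosterol genes 21. The lean was weaker for 24 methionine and sulfate genes, 13 lower and 2 higher in both, and for 15 arginine genes, 9 lower and 3 higher; none of the amino acid, ergosterol, methionine and sulfate or arginine list members was called with 22 libraries. ERG3, a sterol desaturase, stood at 559, 429.9 and 232 CPM and at 741, 381 and 132 CPM without a call for the step.

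PHO84, the high-affinity phosphate transporter, stood at 1345, 2144 and 916 CPM in alpha factor and at 3299.9, 2408 and 730.4 CPM in nocodazole, and it fell by 1.46 ± 0.29 (22 libraries, adjusted p = 0.0436). The arginine genes ARG8 and ARG56 were highest at 0.5N in both arrests. ARG8, an acetylornithine aminotransferase, stood at 36.4, 83.8 and 36.6 CPM and at 34.0, 54.6 and 20.6 CPM, so that its 0.7N level was near or under T0. ARG56, which encodes a pair of enzymes of the same pathway and is not on the arginine list, stood at 155, 547 and 278 CPM and at 142, 284 and 105 CPM, and it fell by 1.19 ± 0.21 (22 libraries, adjusted p = 0.0282). Both were thus higher after the milder salt and back toward T0 after the stronger.

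The genes with the smallest p-values for a lower level at 0.7N also had varied roles. TPO2, a polyamine exporter, stood at 2.76, 24.6 and 9.54 CPM and at 13.2, 250.2 and 40.8 CPM, highest at 0.5N in both arrests, with a difference of -2.12 ± 0.33 and an adjusted p of 0.387. MAE1, the mitochondrial malic enzyme, stood at 138, 112 and 40.02 CPM and at 289, 155 and 25.6 CPM. It fell by 2.02 ± 0.28 (22 libraries, adjusted p = 0.00868). AQR1, a multidrug transporter, stood at 207, 180.2 and 100.04 CPM and at 344, 381 and 157 CPM and fell by 1.05 ± 0.21 (22 libraries, adjusted p = 0.0469). TRM3, SUR2, CIS3, SIM1, YNL058C and YDR222W had log2 differences from -1.29 to -0.84 and no call.

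Several cell wall genes stood apart between the arrests at the level of values. PST1, a wall protein induced by wall damage, stood at 99.3, 386 and 304 CPM in alpha factor and at 145, 1518 and 127 CPM in nocodazole. In nocodazole it was high at 0.5N only, whereas in alpha factor both doses stood above T0. Over both arrests PST1 fell from 0.5N to 0.7N by 1.94 ± 0.25, a call of the 22-library fit. Its step was -0.34 in alpha factor and -3.57 in nocodazole. The difference between arrests in the step was -3.14 ± 0.49, from the 22-library fit with an assumed spread for the lone libraries, with an adjusted p of 0.268. That test called 0 of 5836 genes in either direction (0%), with 72 at an unadjusted p under 0.05 for a step higher in nocodazole (1.23%) and 65 for a step lower (1.11%). KDX1, a kinase-like target of the wall integrity pathway, stood at 135, 239 and 236 CPM and at 44.7, 207 and 44.98 CPM. CRH1, which links chitin to glucan, stood at 535, 635 and 591 CPM and at 286, 619 and 155 CPM. SLT2, the MAP kinase of that pathway, stood at 609.5, 572 and 589.8 CPM and at 236, 597 and 254 CPM. PST1, KDX1, CRH1 and SLT2 were chosen after their values were seen. EXG1, the main glucanase of the wall, was highest at 0.5N in both arrests, at 1129, 1589 and 1039.5 CPM and at 658, 1649 and 453 CPM, and it fell by 1.22 ± 0.25 (22 libraries, adjusted p = 0.0469). Of the 41 tested cell wall genes, 22 stood higher at 0.5N than at both T0 and 0.7N in nocodazole and 15 in alpha factor, against 23.3% and 22% of all tested genes.

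The 28 HOG pathway genes had a median step of 0.11 in alpha factor and -0.13 in nocodazole, and HOG1, the kinase itself and chosen after its values were seen, stood at 177, 213 and 218 CPM and at 259, 294 and 204 CPM. PTP3, a phosphatase that turns Hog1 off, stood at 53.0, 77.2 and 103 CPM and at 43.0, 59.0 and 141 CPM and rose above T0 at 0.7N by 1.36 ± 0.26 (adjusted p = 0.0232). SSK22, a kinase upstream of Hog1, stood at 114, 55.4 and 44.6 CPM and at 95.6, 64.8 and 9.53 CPM and fell from 0.5N to 0.7N by 1.52 ± 0.31 (22 libraries, adjusted p = 0.0486). Of 32 regulators of the stress and growth programmes 15 were higher and 10 lower in both arrests, against 31.3% and 34.9% of all tested genes. YAK1, a kinase that slows growth, was the called one, at 92.7, 111 and 171 CPM and at 86.3, 131 and 366 CPM, and it rose by 1.07 ± 0.21 (22 libraries, adjusted p = 0.0436). USV1, a stress transcription factor, stood at 4.96, 8.69 and 26.8 CPM and at 3.56, 25.1 and 87.0 CPM, ordered by dose in both arrests without a call for the step. TOD6, a repressor of ribosome biogenesis genes, was lower with dose, at 101, 66.4 and 35.4 CPM and at 75.6, 40.1 and 12.5 CPM. Of the 26 sodium, potassium and proton transport genes, 10 were higher and 5 lower in both arrests, beside the same shares of all tested genes. Their median step was 0.03 in alpha factor and 0.14 in nocodazole, with ENA1 the call.

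The summed pheromone markers went from 9593 to 8363 and 5570 CPM over T0, 0.5N and 0.7N, and FIG1, a mating protein, from 1388 to 1013 and 535 CPM. FUS1 went from 506 to 525 and 413 CPM. The mitotic markers in nocodazole summed to 1934, 2194 and 2519 CPM, while CLB2 was at 219, 194 and 137 CPM. Of 32 pheromone response genes 20 were lower at 0.7N in both arrests, against 34.9% of all tested genes, and none was called with 6 or 22 libraries. The 6 M/G1 genes, listed as markers of cells past the arrest, summed to 3259, 3500 and 1838 CPM in alpha factor. There they were already high at T0, with CTS1 alone at 2061 CPM, so they do not mark cells past the G1 arrest. In nocodazole their sums were 416, 572 and 578 CPM, so both salt libraries stood above T0 there. The 10 S phase markers summed to 282, 447 and 456 CPM in alpha factor and to 426, 484 and 389 CPM in nocodazole. DSE4, a glucanase of daughter cell separation, stood at 209, 138 and 66.2 CPM and at 96.5, 83.2 and 49.2 CPM. The part of these markers in the dose differences was not tested.

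Against T0 the stronger dose gave far more calls than the milder one in the 6-library fit. At 0.5N, 17 genes rose (0.306%) and 1 fell (0.018%), BDF2, a bromodomain protein gene; at 0.7N, 431 rose (7.75%) and 441 fell (7.93%). At an unadjusted p under 0.05 the shares were 10.3% and 9.39% at 0.5N and 17.4% and 18% at 0.7N. The comparisons share the T0 libraries, and the 2 counts do not test the difference between doses, which the direct comparison above does. The 0.5N counts were 0 and 0 without the alpha factor or the nocodazole 0.5N library. They were 488 and 564 without alpha factor T0, 150 and 98 without nocodazole T0, 222 and 202 without alpha factor 0.7N, and 216 and 187 without nocodazole 0.7N. The 0.7N counts were 856 and 982 without alpha factor T0, 122 and 84 without alpha factor 0.5N, 583 and 691 without alpha factor 0.7N, 124 and 86 without nocodazole 0.5N, and 191 and 189 without nocodazole 0.7N. With the spread of 22 libraries the counts were 326 and 244 at 0.5N and 723 and 853 at 0.7N.

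TKL2, a transketolase isoform, stood at 3.86, 228 and 716 CPM in alpha factor and at 2.74, 1385 and 2455 CPM in nocodazole. Its log2 difference from T0 was 7.75 ± 0.76 at 0.5N and 8.94 ± 0.77 at 0.7N, with adjusted p of 0.0314 and 0.00859. For the lists that follow, the share of all tested genes that rose at 0.7N against T0 was 7.75%. At 0.7N against T0, 23 of 28 osmotic response genes rose (15 without the alpha factor or the nocodazole 0.5N library), and 41 of 58 general stress genes rose (20 and 21 without those libraries). Of the 22 trehalose and glycogen genes 17 rose (4 and 5 without those libraries, and 11 without nocodazole 0.7N).

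Of 130 ribosome biogenesis genes 109 fell at 0.7N against T0 (32 without alpha factor 0.5N and 31 without nocodazole 0.5N). Of all tested genes 7.93% fell in that comparison. None of the 137 ribosomal protein genes was called, with medians of -0.19 in alpha factor and -1.74 in nocodazole. Without the alpha factor T0 library 127 of them were called lower, and without the alpha factor 0.7N library 95. GRE1 and SIP18, hydrophilin genes of desiccation, rose by 7.44 ± 0.95 and 7.43 ± 0.85 (adjusted p = 0.0138 and 0.0121). DHR2, an RNA helicase of ribosome assembly, fell by 3.06 ± 0.41 (adjusted p = 0.0147). AAH1, adenine deaminase, fell most at 0.7N among genes of at least 10 CPM, by 4.30 ± 0.53 (adjusted p = 0.0138), at 132, 25.2 and 11.4 CPM and at 66.3, 3.69 and 1.19 CPM.

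The genes with the smaller p-values for the dose step were set beside a separate time course; most of them were not called. Replicate 1 of each arrest has 1 library at T0, T15, T30, T45 and T60 after salt whose dose the labels do not give, and it shares no library with the 6. Of the 303 genes higher at 0.7N at an unadjusted p under 0.05, 89.8% in alpha factor and 90.1% in nocodazole stood higher at T15 than at T45, against 51.9% and 51.5% of all tested genes. They stood higher at T30 than at T60 in 82.5% and 96.7%, against 53.8% and 51.2%. Of the 285 lower genes, 9.5% and 15.1% stood higher at T15 than at T45, and 17.2% and 1.8% at T30 than at T60. Of the 29 genes called higher with 22 libraries, 29 in alpha factor and 27 in nocodazole stood higher at T15 than at T45, and 26 and 29 at T30 than at T60. Of the 22 called lower, 1 and 1 stood higher at T15 than at T45, and 3 and 0 at T30 than at T60. These shares describe genes that are not independent. The 22-library fit also holds the T0 and T30 libraries of this course, so its 29 and 22 genes were not called apart from it.

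Across the 5558 genes the Pearson correlation of the dose difference with T15 minus T45 was 0.46 in alpha factor and 0.54 in nocodazole, and with T30 minus T60 it was 0.46 and 0.74. STL1 in this course stood at 2.97, 1876, 885, 237 and 169 CPM in alpha factor and at 1.89, 3655, 4455, 57.4 and 187 CPM in nocodazole. PST1 in nocodazole stood at 104, 41.6, 69.2, 1501 and 702 CPM, so its 0.5N level at t30 (1518 CPM) was near its T45 level, and its 0.7N level (127 CPM) was nearest to T0 and above T15 and T30. NSR1 in alpha factor stood at 347, 61.1, 103, 174 and 205 CPM, which placed 0.5N (181 CPM) near T45 and 0.7N (89.6 CPM) between T15 and T30. In replicate 2 its T0 level was 509.7 CPM, so this placement compares CPM and not change from T0. List medians were less uniform: the osmotic list had T15 minus T45 of 0.12 and 0 in the 2 arrests and T30 minus T60 of 1.06 and 0.31, and ribosome biogenesis genes -0.42 and -0.35, then -0.16 and -1.49.

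**Figure D5:**
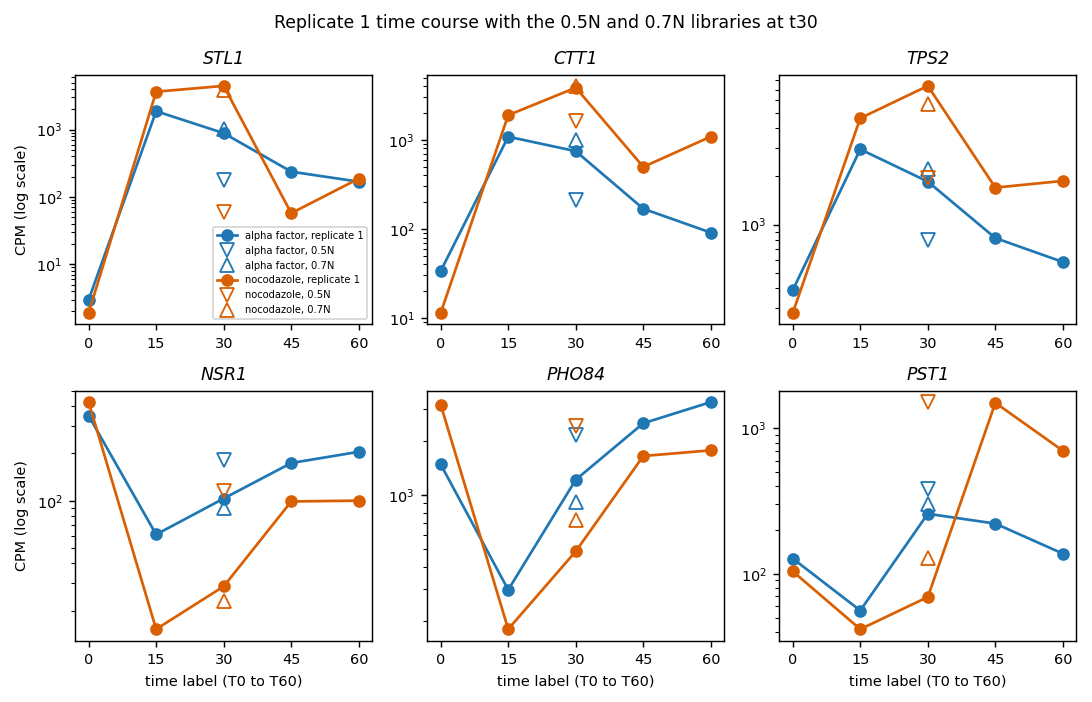
CPM on a log axis of 6 genes in the replicate 1 time course (lines, 1 library per point, time labels T0 to T60) with the 0.5N (open down triangles) and 0.7N (open up triangles) libraries at t30; blue is alpha factor, orange nocodazole. For STL1 in nocodazole the 0.5N triangle (59.9 CPM) is level with T45 and the 0.7N triangle (3819 CPM) with T15 and T30.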

How the data were processed

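Each value is a raw count of reads on an open reading frame, as deposited. The submitters' processing notes name Trimmomatic 0.32, Bowtie2 and HTSeq 0.6.1, which trim, align and count reads. The Bowtie2 release, the build, the gene models and the strand option: not given in the sources used here. Per the labels, RNA came from hot phenol extraction, Ribo-Zero depletion and ScriptSeq v2 libraries. The table holds 6705 named rows (8 emptied lines aside), of which 6018 matched a symbol in the RefSeq R64 gene table. The table used has 20 further count columns, of heat shock libraries, not used here. Counts were fitted in edgeR 4.0.16 (R 4.3.3, limma 3.58.1; filterByExpr, TMM, quasi-likelihood, two-sided, Benjamini-Hochberg, 0.05), with DESeq2 1.42.0 as an alternative. Log2 CPM differences within an arrest use a prior count of 2. Standard errors are the log2 difference over the root of F. Marker sums use plain library totals.

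The scripts were tested on simulated data. Libraries of a group differed by 6.86 to 71.2 times sampling variance, so none was a copy. Named genes are the 12 per direction of smallest p with at least 10 CPM and 1 sign in both arrests, the member of smallest p or up to 3 called members of each list, the 4 largest called per direction against T0, and a fixed set (CTT1, HSP12, GPD1, STL1, ENA1, NSR1, RPL3, FUS1, CLB2). Members and lists were chosen with earlier results of these data known. The promoter description planned was not run.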

Additional observations from a re-analysis of the deposited data

How the results depend on the processing

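The 0.7N against 0.5N counts of 0 higher and 0 lower were also 0 with RLE factors, library totals, no filter on low counts, no arrest term and 0.5N libraries thinned to the 0.7N totals. They became 19 and 7 with DESeq2, 29 and 22 with the spread of 22 libraries, 49 and 65 when those left out cycloheximide, 249 and 356 with only the 4 salt libraries, and 467 and 508 with dose as a number, a slope that also takes in T0. Leaving out 1 library gave 0 to 245 higher and 0 to 349 lower. The thinning, the 4 libraries and the fit without cycloheximide were chosen after seeing the data.

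The arrest term of the 6-library fit pairs the doses within each arrest, and its removal is given above and below; pairing by replicate number could not be applied within the 6, which all carry number 2. A replicate block in the 22-library fit gave 77 higher and 63 lower. Across 6 groups with 2 libraries the replicate 2 minus replicate 1 differences correlated at -0.176 to 0.707, over 0.1 in 8 of 15 pairs of groups, so the numbers were not read as pairs.

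The 0.5N against T0 counts (17 and 1) were 44 and 14 with RLE, 31 and 8 with library totals, 77 and 31 unfiltered, 178 and 94 with DESeq2, 326 and 244 with 22 libraries, 0 and 0 without the arrest term, and 0 to 488 and 0 to 564 with 1 library left out. The 0.7N against T0 counts (431 and 441) were 723 and 853 with 22 libraries, 0 and 0 without the arrest term, and 122 to 856 and 84 to 982 with 1 library left out. The causes were not tested. The difference between arrests had 0 calls under every alternative run (RLE, no filter, replicate block, without cycloheximide).

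For the 59 genes named for the step, 821 of 826 alternative values kept their direction. HSP12 reversed to -0.043 without the arrest term, and its values with 1 library left out ran from -0.664 (without alpha factor 0.5N) to 1.031, with -0.424 without nocodazole 0.7N. RPL3 ran from -1.092 to 0.047 (without nocodazole 0.7N), and FUS1 from -0.405 to 0.307 (without alpha factor 0.5N). The list medians of HOG pathway, mitochondrial ribosomal protein, nuclear respiration, iron and copper and meiosis genes are above 0 with library totals (0.08, 0.03, 0.03, 0.07 and 0.06) and below 0 with TMM or RLE. The meiosis list has a median of -0.02 in the fit but 0.13 in alpha factor and 0.16 in nocodazole alone. Depth limits genes with few counts, such as UTP23 in nocodazole at 0.7N.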

Other observations

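Beyond the growth and stress lists, a few genes with other roles stood out by value and were chosen after seeing them. IME4, an RNA methyltransferase gene of meiosis, stood at 538, 121 and 90.7 CPM at T0, 0.5N and 0.7N in alpha factor and at 1.84, 1.53 and 3.44 CPM in nocodazole, on plain library totals. Reads of a gene and of an antisense transcript over it cannot be told apart here. SPT5, a transcription elongation factor, stood at 376, 209 and 81.0 CPM in alpha factor and at 380.0, 194 and 289.8 CPM in nocodazole, so the step had opposite signs. MSN4 stood at 44.1, 72.8 and 69.9 CPM and at 96.5, 215 and 74.8 CPM, while its paralog MSN2 stood at 53.0, 113 and 149.6 CPM and at 90.1, 164 and 206 CPM. DOT6, the paralog of TOD6, stood at 56.8, 69.5 and 33.6 CPM and at 74.0, 113 and 100.4 CPM. Neither MSN4 nor DOT6 was called for the step from 0.5N to 0.7N by the 6-library or the 22-library fit.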
